A study of Homo sapiens with 8 samples.

Results

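The 10 genes described here encode the 7 proteins of the Sm ring (SNRPB, SNRPD1, SNRPD2, SNRPD3, SNRPE, SNRPF and SNRPG) and the 3 core proteins of the methylosome (PRMT5, WDR77 and CLNS1A). The rule that chose them uses the known function of their products and no measured value, although it was set with earlier results of these data known, and all 10 were among the 13129 protein-coding genes that could be tested. H929 and KMS11, the established cell lines in which their RNA was measured by RNA-seq, come from multiple myeloma, a cancer of plasma cells, and both carry the translocation t(4;14). The cells of each line were kept for 24 h either in 2 µM fluvastatin, a statin that inhibits HMG-CoA reductase of the mevalonate pathway, or in ethanol, the solvent control. There were 8 libraries, 2 biological replicates in each of the 4 groups, and per the methods the RNA was taken before the cells died at this dose. Each line stands for 1 patient's tumour grown in culture, so that a difference between the lines cannot be told apart from other differences between these cultures.

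Spliceosomal small nuclear ribonucleoproteins (snRNPs) are the RNA and protein particles that recognise introns and carry out splicing. In each of the U1, U2, U4 and U5 particles the Sm proteins close as a ring around a short uridine-rich site on the small nuclear RNA. The ring is needed for the cap of that RNA to be further methylated, and for the particle to return to the nucleus and stay stable. Before this, in the cytoplasm, CLNS1A (pICln) holds newly made Sm proteins and presents them to PRMT5 and its partner WDR77 (MEP50), which dimethylate arginines in the tails of SNRPB, SNRPD1 and SNRPD3, after which the SMN complex loads the ring onto the RNA.

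The promoters of the members were read for short motifs. RefSeq promoter windows on GRCh38.p14, of 250 bases before the RefSeq start, matched 9 of the 10 genes, all but SNRPD1. Of the 7 motifs searched on both strands, CCAAT, which reads ATTGG on the opposite strand, occurred in 3 of the 9 windows, those of SNRPD2, SNRPF and PRMT5, against 37.0% of 27305 genes. Stretches of the windows of PRMT5 at chr14:22929409-22929606 on the minus strand and of SNRPF at chr12:95858840-95858951 on the plus strand are shown because each holds the motif 2 times. They were trimmed to the bases before the start in GENCODE that lie in no other gene. The window of CLNS1A at chr11:77637795-77638044 on the minus strand is shown as an example that holds none. Capitals mark the motif, and each line runs 5′ to 3′ on the strand of the gene.
PRMT5: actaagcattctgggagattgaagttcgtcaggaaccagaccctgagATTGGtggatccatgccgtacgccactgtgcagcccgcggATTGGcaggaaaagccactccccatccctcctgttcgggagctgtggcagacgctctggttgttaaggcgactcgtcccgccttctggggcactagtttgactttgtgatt
SNRPF: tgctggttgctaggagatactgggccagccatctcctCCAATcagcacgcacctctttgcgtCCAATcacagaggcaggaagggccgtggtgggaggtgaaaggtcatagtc
CLNS1A: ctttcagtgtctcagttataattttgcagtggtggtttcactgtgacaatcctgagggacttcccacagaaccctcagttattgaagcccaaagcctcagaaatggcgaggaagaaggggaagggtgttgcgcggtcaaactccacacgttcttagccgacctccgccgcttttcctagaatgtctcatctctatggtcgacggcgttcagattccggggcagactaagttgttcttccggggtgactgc
The motif began 151 and 111 bases before the GENCODE start of PRMT5 and 75 and 50 bases before that of SNRPF, and the whole window of PRMT5 held it 3 times. CCGGAAGT, the core bound by ETS factors, was found at SNRPB and SNRPE (2 of 9, against 4.13% of genes), and GGGCGG, the core bound by SP factors, at SNRPD3, SNRPF and WDR77 (3 of 9, against 46.2%), where the match at SNRPF lies before the stretch shown. None of the 9 windows held CACGTG, the E-box bound by MYC (7.73% of genes), the palindromic site of NRF1 (1.28%), AAGATGGCG, bound by YY1 (0.784%), or TATAAA (13.0%). A match gives only the letters of the window, and with 9 windows no share was compared by a test.

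Total expected counts, the fragments that RSEM assigned to genes, ranged from 26702515 to 41910446 per library. Rounded counts were scaled with TMM and tested with the quasi-likelihood test of edgeR, and a gene was called at a Benjamini-Hochberg adjusted p under 0.05 over all genes tested. Of 8 plasma cell markers all reached 1 TPM in H929, and 7 did in KMS11, where CD38 stayed below 1 TPM. The markers of T cells, myeloid cells and stromal cells were each below 1 TPM in every library with the exception of CD3E in H929. Members had 529 to 12404 expected counts in a library. In bulk RNA, less of a transcript per cell and fewer cells that carry it cannot be told apart.

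The Sm ring genes were present at unequal levels. Compared per length as TPM, the abundance that RSEM scales by effective length to a fixed sum, SNRPF was the lowest of the 7 in all 8 libraries and SNRPD2 or SNRPE the highest, and the highest Sm gene stood 10.2 to 17.0 times above the lowest. In H929 in ethanol SNRPD2 had 227 and 244 TPM, SNRPE 139 and 184 TPM, and SNRPG 79.9 and 102 TPM. SNRPD1 followed with 70.2 and 87.8 TPM and overlapped SNRPG, SNRPD3 had 60.9 and 62.0 TPM and SNRPB 56.3 and 63.3 TPM. SNRPD3 and SNRPB overlapped each other, and SNRPF lay well below them with 18.6 and 23.9 TPM. Of the methylosome genes in these libraries, PRMT5 had 54.0 and 68.6 TPM and CLNS1A 55.8 and 62.0 TPM, which overlapped each other and SNRPB. WDR77 had 22.0 and 21.9 TPM, within the range of SNRPF.

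In KMS11 in ethanol the order began with SNRPE at 588 and 552 TPM, above SNRPD2 at 433 and 432 TPM and SNRPG at 337 and 313 TPM. SNRPD3 (157 and 142 TPM) and SNRPD1 (150 and 130 TPM) overlapped, and SNRPB (87.3 and 82.0 TPM), CLNS1A (76.9 and 68.4 TPM), PRMT5 (57.8 and 53.6 TPM), SNRPF (52.5 and 41.8 TPM) and WDR77 (11.3 and 10.3 TPM) followed without overlap. The 3 shortest transcripts were those of SNRPG, SNRPE and SNRPD2, with mean effective lengths of 364, 387 and 432 bases, and these genes took the top 3 places in every group. Whether length had a part in this order was not tested.

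**Figure D1:**
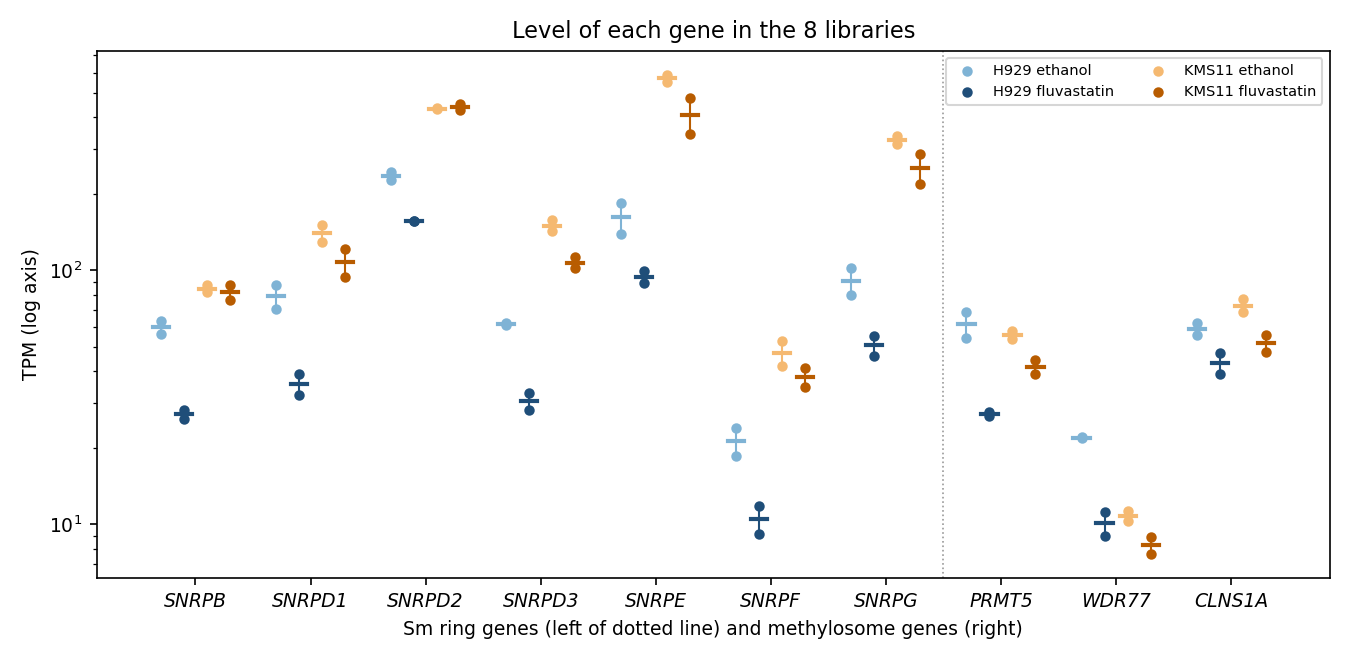
TPM (log axis) of the 10 genes in the 8 libraries, grouped by line and treatment. Points are libraries, the short bar is the mean of 2 and the thin line joins them. In H929 the fluvastatin points lie below the ethanol points for every gene, and SNRPE, SNRPG and SNRPD2 stand highest in KMS11.

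Fluvastatin lowered the RNA of the whole set in H929. All 10 genes passed the test there, all of them lower, where 19.3% of all genes tested were called lower. The log2 fold changes ran from -1.13 to -0.45 with a median of -0.98, and the median of all genes tested was 0.02. For every one of the 10, both fluvastatin libraries lay below both ethanol libraries in CPM, counts scaled to library size, which held for 33.5% of all genes tested. In the same libraries 4 of 8 plasma cell markers were called lower and 1 higher, with a summed level of 1995 to 2138 TPM in ethanol and 1679 to 1734 TPM in fluvastatin. The 3 T cell markers summed to 1.51 to 1.60 TPM and 3.07 to 3.54 TPM, with CD3E called higher and CD3D and CD2 below 1 TPM. The mitochondrial share of counts was 0.716% and 0.745% in ethanol and 0.898% and 1.06% in fluvastatin. In KMS11 the plasma cell markers summed to 893 to 921 TPM in ethanol and 644 to 731 TPM in fluvastatin. The T cell markers there summed to 0.40 to 0.46 TPM and 0.29 to 0.32 TPM. The mitochondrial share in KMS11 was 0.520% and 0.530% in ethanol and 0.678% and 0.665% in fluvastatin. The part of these in the members' changes was not tested.

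SNRPB, which encodes the SmB and SmB' proteins, had 125 and 113 CPM in ethanol and 56.7 and 52.4 CPM in fluvastatin in H929. The groups stood well apart, and SNRPB fell by 1.12 on the log2 scale (SE 0.12, adjusted p = 7.82e-05), to 0.459 of its ethanol level. SNRPD1, whose product is another target of the methylosome, went from 126 and 156 CPM to 59.8 and 69.0 CPM and fell by 1.13 (SE 0.13, adjusted p = 0.000129). The ethanol libraries of SNRPD1 differed from each other by more than those of SNRPB, and yet both lay above the fluvastatin libraries by a wide gap. SNRPD3, which carries the third methylated tail, had 112 and 127 CPM in ethanol against 58.3 and 67.5 CPM in fluvastatin and fell by 0.93 (SE 0.11, adjusted p = 0.000145). In none of the 3 did a fluvastatin library reach the level of an ethanol library.

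SNRPD2, which pairs with SNRPD1 in the ring and has no such arginine-rich tail, had the smallest fall of the 7 Sm genes. Its 210 and 207 CPM in ethanol were nearly the same in both libraries, as were its 138 and 130 CPM in fluvastatin, and it fell by 0.64 (SE 0.10, adjusted p = 0.000699). SNRPE, SNRPF and SNRPG encode the trio that closes the ring on the other side. SNRPE had 116 and 154 CPM in ethanol and 72.8 and 82.1 CPM in fluvastatin and fell by 0.80 (SE 0.14, adjusted p = 0.00164). SNRPF, the lowest of the ring, had 46.1 and 61.2 CPM against 23.2 and 29.4 CPM and fell by 1.03 (SE 0.16, adjusted p = 0.000785). SNRPG had 62.4 and 80.8 CPM against 36.3 and 44.1 CPM and fell by 0.83 (SE 0.15, adjusted p = 0.00163). In each of these genes replicate 2 was the higher of its pair in both treatments, and the lower ethanol library still exceeded the higher fluvastatin library. For SNRPE, and by little for SNRPG, that gap was narrower than the spread between the ethanol libraries of the gene.

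The catalytic subunit of the methylosome fell together with its partner. PRMT5, the methyltransferase that makes symmetric dimethylarginine, had 158 and 169 CPM in ethanol and 76.0 and 80.9 CPM in fluvastatin, a fall by 1.06 (SE 0.09, adjusted p = 2.86e-05), which was the smallest adjusted p of the 10 genes. WDR77, the substrate-binding partner without which PRMT5 is weakly active, had 83.1 and 90.5 CPM against 36.8 and 43.4 CPM and fell by 1.11 (SE 0.11, adjusted p = 5.91e-05). CLNS1A, the chaperone that brings the Sm proteins, had 109 and 128 CPM against 80.2 and 93.3 CPM. Its fall by 0.45 (SE 0.11, adjusted p = 0.0106) was the smallest of the set, and the gap between its treatments was narrower than the spread between its ethanol libraries. Without H929 fluvastatin replicate 1 or without H929 ethanol replicate 2, CLNS1A no longer passed and 9 of the 10 genes were called.

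In KMS11 none of the 10 genes passed the test, where 0.533% of all genes tested were called lower. The unadjusted p was under 0.05 for 6 of them in the edgeR test, and the share of all genes with such a p was not counted. DESeq2 called 0 of the 10 as well, where it called 269 of the 13129 genes tested lower. The log2 fold changes ran from -0.35 to 0.09 with a median of -0.25, beside a median of 0.00 for all genes. In CPM, 8 of the 10 had both fluvastatin libraries below both ethanol libraries, which held for 26.5% of all genes tested, and the exceptions were SNRPB and SNRPD2. Without KMS11 fluvastatin replicate 2, 2 of the 10 genes passed, both lower, where 4.84% of all genes tested were.

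SNRPB in KMS11 had 119 and 121 CPM in ethanol and 142 and 113 CPM in fluvastatin, so that the fluvastatin libraries lay on either side of the ethanol libraries. Its log2 fold change was 0.09 (SE 0.12, adjusted p = 0.680). SNRPD2 likewise had 301 and 322 CPM against 337 and 291 CPM, with a log2 fold change of 0.01 (SE 0.10, adjusted p = 0.975). In both genes the higher value was that of fluvastatin replicate 1, and without this library the values were -0.0868 for SNRPB and -0.11 for SNRPD2. The sign of both thus turned on 1 library, and that of SNRPD2 also on ethanol replicate 1, without which it was -0.0673. Fluvastatin replicate 1 had 30721780 counts, the fewest of the 4 from KMS11, and 88.1% of them lay in protein-coding genes, beside 90.8% to 91.4% in the others, and the part of this in the values was not tested.

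The other Sm genes of KMS11 had negative values that did not pass. SNRPD1 had 189 and 179 CPM in ethanol and 139 and 162 CPM in fluvastatin (log2 fold change -0.29, SE 0.13, adjusted p = 0.220). SNRPD3 had 200.1 and 187 CPM against 152 and 164 CPM (-0.30, SE 0.11, adjusted p = 0.152). In both, fluvastatin replicate 1 was the lower of its pair. SNRPE had 324 and 329 CPM against 238 and 286 CPM (-0.32, SE 0.14, adjusted p = 0.222). SNRPG had 168 and 177 CPM against 137 and 164 CPM (-0.20, SE 0.14, adjusted p = 0.442). SNRPF, at 90.0 and 75.9 CPM against 71.2 and 75.9 CPM, was the closest to overlap of these, since its second libraries in the 2 treatments were almost equal (-0.17, SE 0.15, adjusted p = 0.529).

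The methylosome genes of KMS11 had small negative values with little spread. PRMT5 had 103 and 111 CPM in ethanol against 95.2 and 89.8 CPM in fluvastatin (-0.21, SE 0.09, adjusted p = 0.213). WDR77 had 34.1 and 34.4 CPM against 26.3 and 28.2 CPM (-0.33, SE 0.11, adjusted p = 0.142). CLNS1A had 107 and 101 CPM against 77.6 and 85.5 CPM (-0.35, SE 0.11, adjusted p = 0.131), which was the most negative of the 10 in this line. None of the 3 overlapped between treatments. With the trend of counts with GC content removed in each library, 4 of the 10 genes passed in KMS11, all lower, which were SNRPD3, PRMT5, WDR77 and CLNS1A, and in that fit 5.72% of all genes tested were called lower.

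**Figure D2:**
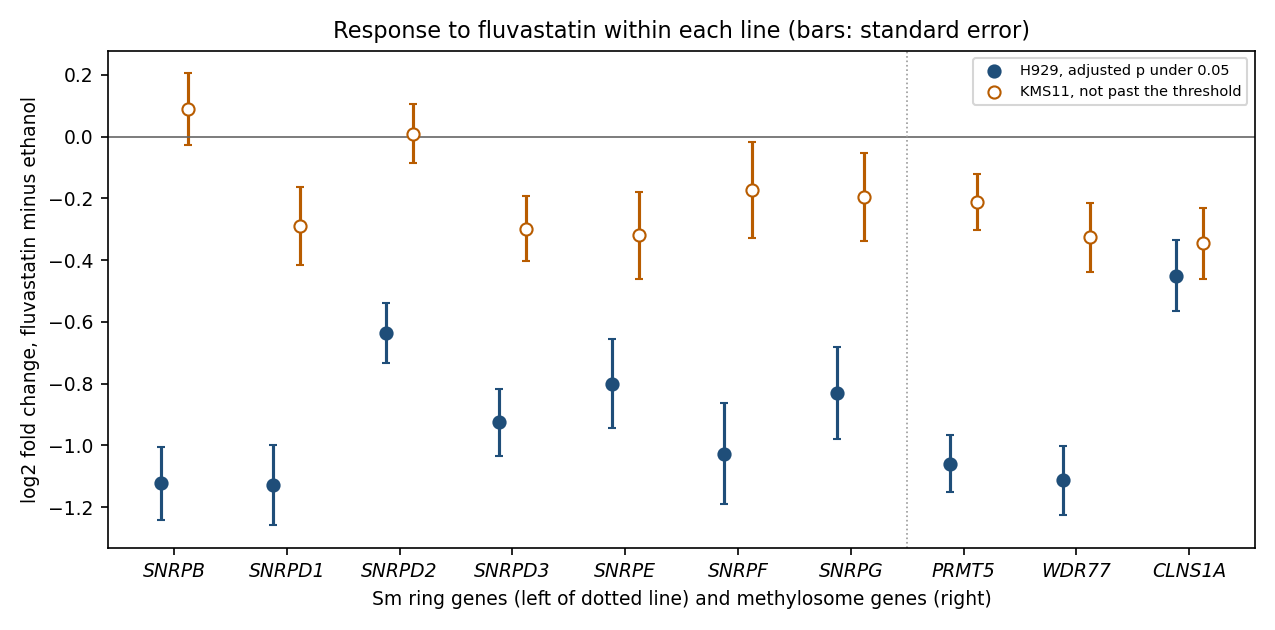
Log2 fold change from ethanol to fluvastatin in H929 (blue) and KMS11 (orange) for the 10 genes, with the standard error as bars. Filled points passed the test and open points did not. All 10 blue points lie between -1.13 and -0.45 and the orange points between -0.35 and 0.09, and the lines come together only at CLNS1A.

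The difference between the lines was tested directly, as the response of KMS11 minus that of H929. It passed for 7 of the 10 genes, each with the greater fall in H929, where 11.7% of all genes tested had a difference of this sign. SNRPB differed the most, with a log2 difference of 1.21 (SE 0.17, adjusted p = 0.00126). PRMT5 followed in strength of evidence with 0.85 (SE 0.13, adjusted p = 0.00208), and its partner WDR77 had 0.79 (SE 0.16, adjusted p = 0.00749). The other 4 were SNRPD1 (0.84), SNRPF (0.85), SNRPD2 (0.65) and SNRPD3 (0.63), with adjusted p values from 0.00965 to 0.0226. The genes of all 3 methylated Sm proteins and of both subunits of the enzyme were thus among those that differed.

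The remaining 3 genes did not pass. SNRPG had a difference of 0.63 (SE 0.21, adjusted p = 0.0508) and SNRPE one of 0.48 (SE 0.20, adjusted p = 0.109), both with the sign of the others. CLNS1A had a difference of 0.11 (SE 0.16, adjusted p = 0.677), and was the only member whose difference was smaller than its error. With the trend with length removed 3 of the 10 genes passed, where 1300 of the 13129 genes tested had a difference of this sign. With each library left out in turn, which leaves 1 library in a group, the number of members that passed moved both ways. It was smaller without KMS11 ethanol replicate 1 or 2, H929 fluvastatin replicate 1 or H929 ethanol replicate 2. It was larger without KMS11 fluvastatin replicate 1, H929 ethanol replicate 1 or H929 fluvastatin replicate 2. Positive differences called over all genes tested were fewer in each of these fits. Without KMS11 fluvastatin replicate 2 the number of members was unchanged, and positive differences over all genes tested were more numerous.

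Over both lines, with a term for the line, 6 of the 10 genes were lower with fluvastatin, where 3.93% of all genes tested were called lower. They were SNRPD1, SNRPD3, SNRPE, PRMT5, WDR77 and CLNS1A, so that the whole methylosome and 3 of 7 Sm genes passed. WDR77 fell by 0.72 (SE 0.16, adjusted p = 0.0300), SNRPD1 by 0.71 (SE 0.18, adjusted p = 0.0386) and PRMT5 by 0.63 (SE 0.16, adjusted p = 0.0428). CLNS1A, with the smallest fall among those called, fell by 0.40 with the smallest error (SE 0.09, adjusted p = 0.0325), and its values in the lines, -0.45 and -0.35, lay close together. SNRPB, with -1.12 in H929 and 0.09 in KMS11, had -0.51 with the largest error (SE 0.23, adjusted p = 0.162). With a replicate block added, 0 of the 10 genes passed, where 15 of the 13129 genes tested were called lower. None of the 6 calls held when any 1 of the 4 H929 libraries was left out, and fewer held without KMS11 ethanol replicate 2. In those fits, which leave 1 library in a group, lower calls over all genes tested also became fewer.

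The summed level shows the same contrast. The 7 Sm genes together had 659 and 760 TPM in H929 in ethanol and 389 and 421 TPM in fluvastatin. In KMS11 they had 1806 and 1693 TPM in ethanol and 1332 and 1539 TPM in fluvastatin, which did not overlap either. Even the lowest KMS11 library in fluvastatin stood above the highest H929 library in ethanol. The 3 methylosome genes together had 132 and 153 TPM in H929 in ethanol and 74.7 and 85.9 TPM in fluvastatin, and in KMS11 146 and 132 TPM against 94.4 and 109 TPM. In TPM the methylosome sums of the lines in ethanol overlapped, while their ring sums did not. This depends on the scale, since the median of all genes tested was 0.31 higher in KMS11 in log2 TPM. In scaled counts PRMT5 (-0.61) and WDR77 (-1.34) were lower in KMS11 in ethanol, and CLNS1A did not pass.

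The lines were also compared in ethanol, in scaled counts. In KMS11, 6 of the 10 genes were higher than in H929, where 35.6% of all genes tested were, and 2 were lower, where 36.4% were. The 6 were all Sm genes. SNRPE and SNRPG both had a log2 difference of 1.27 (SE 0.14 and 0.15, adjusted p = 2.47e-05 and 2.96e-05), which is 2.42 and 2.41 times the H929 level. SNRPD3 (0.70), SNRPF (0.63), SNRPD2 (0.58) and SNRPD1 (0.39) followed, and SNRPB had 0.01 (SE 0.12, adjusted p = 0.935). WDR77 was lower in KMS11, with a log2 difference of -1.34 (SE 0.11, adjusted p = 2.95e-06), or 0.394 of its H929 level. PRMT5 was lower with -0.61 (SE 0.09, adjusted p = 0.000178), and CLNS1A had -0.19 (SE 0.11, adjusted p = 0.148). With shares of this size called among all genes, the counts show no more than that these genes, like most others, differed between the lines.

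These baseline values depended on the scale. In TPM the median of all genes tested was 0.31 higher in KMS11 on the log2 scale, against -0.02 in scaled counts. On that scale SNRPB was called higher in KMS11 (0.50), CLNS1A had 0.30 and PRMT5 had -0.13 and was not called, while WDR77 kept its direction and its call with -0.96. The higher level of SNRPE, SNRPG, SNRPD2 and SNRPD3 in KMS11 passed under all 21 alternatives tried. SNRPD1 and SNRPF lost the call under some of them, with lowest log2 differences of 0.0377 and 0.319.

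**Figure D3:**
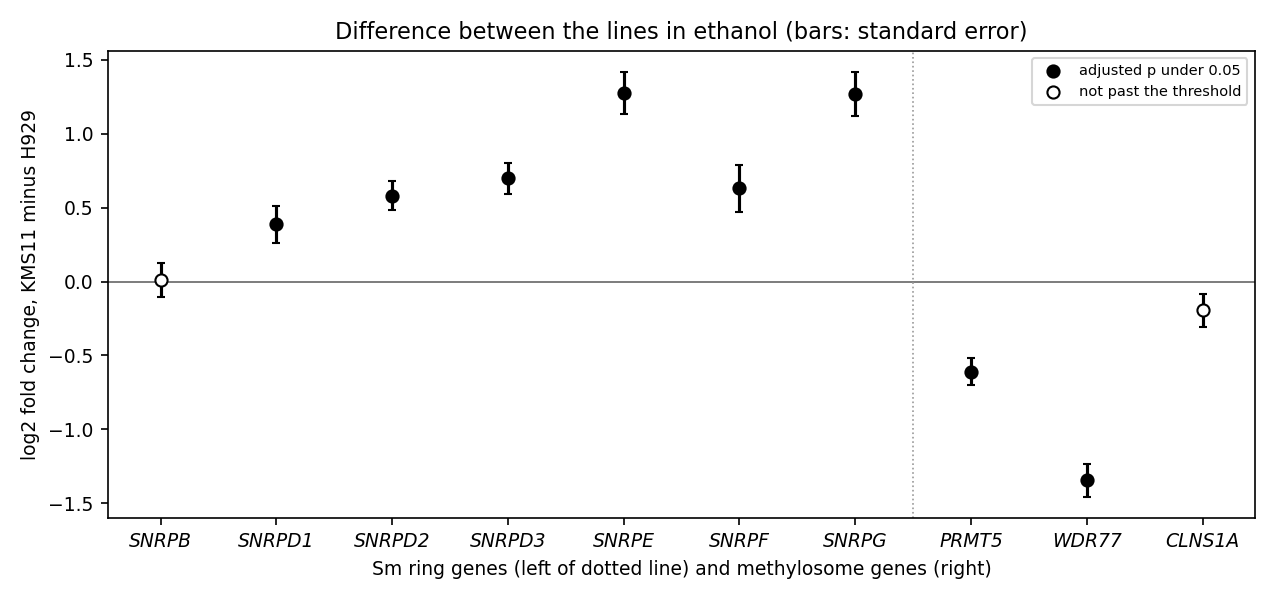
Log2 difference in scaled counts between KMS11 and H929 in ethanol for the 10 genes, with the standard error as bars. SNRPE and SNRPG stand highest at 1.27 and WDR77 lowest at -1.34, and the open points, SNRPB and CLNS1A, did not pass the test.

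The neighbours of the ring in its assembly were examined by fixed lists. Their counts stand beside shares over all genes tested of 19.3% lower and 22.7% higher in H929, and of 0.533% lower and 2.58% higher in KMS11. COPRS and RIOK1 are adaptors that direct PRMT5 to histones and to nucleolar substrates. COPRS had 27.7 and 29.8 CPM in ethanol and 10.5 and 12.0 CPM in fluvastatin in H929, a fall by 1.35 (SE 0.12, adjusted p = 3.00e-05), and its response differed between the lines by 1.15. RIOK1 had a log2 fold change of -0.18 (SE 0.12, adjusted p = 0.278) in H929 and did not pass. The adaptors thus had unlike values in H929, and neither passed in KMS11.

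Of the 10 genes of the SMN complex, which loads the ring, 6 were lower in H929 and none was higher, with a median of -0.52, where 19.3% of all genes tested were lower. The 3 largest changes were those of GEMIN4 (-0.94), GEMIN5 (-0.80) and GEMIN6 (-0.67). GEMIN5, which binds the small nuclear RNA itself, was the only gene of the complex called in KMS11, with 112 and 114 CPM in ethanol and 74.1 and 74.3 CPM in fluvastatin (fell by 0.61, SE 0.11, adjusted p = 0.0220). Its values in H929 were 122 and 143 CPM against 68.5 and 83.3 CPM, and the difference between its responses did not pass (0.19, SE 0.16, adjusted p = 0.411). GEMIN4 by contrast had -0.07 in KMS11, and the difference between the lines passed (0.87, adjusted p = 0.00768).

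Of the 8 genes for cap binding, export and import of small nuclear RNA, 6 were lower in H929, with a median of -0.44. NCBP2, of the nuclear cap-binding complex, fell by 0.71, the export receptor XPO1 by 0.67 and the import receptor KPNB1 by 0.65. None of the 8 passed in KMS11. Of 5 genes for proteins specific to the U1 and U2 particles, 4 were lower in H929 with a median of -0.76, led by SNRPA1 of U2 (-1.08) and by SNRNP70 (-0.91) and SNRPA (-0.76) of U1. None of these 5 passed in KMS11 either.

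The LSm proteins form related rings, among them the ring on U6 small nuclear RNA. Of the 8 genes listed, LSM1 to LSM8, 4 were lower in H929, with a median of -0.53. In KMS11 0 passed, and all genes tested gave 19.3% lower in H929 and 0.533% lower in KMS11. LSM4, whose product has an arginine-rich tail like those of the methylated Sm proteins, fell by 1.11 (SE 0.10, adjusted p = 2.91e-05), LSM7 by 0.93 and LSM3 by 0.73. All 3 differed between the lines, by 1.23 for LSM4 and LSM7 and 0.60 for LSM3. LSM10 and LSM11 replace SNRPD1 and SNRPD2 in the ring of the U7 particle, which processes histone messages. LSM11 fell by 0.37 in H929 (adjusted p = 0.0207), and LSM10 had -0.16 (adjusted p = 0.517).

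SNRPN, a copy of SNRPB expressed chiefly in brain, had a log2 fold change of 0.06 (SE 0.10, adjusted p = 0.675) in H929, where SNRPB fell. SNRPN and SNRPB are close in sequence and SNRPN shares exons with SNURF, so that the division of fragments between them is uncertain.

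Among the other arginine methyltransferases, 7 of 8 could be tested. In H929, 4 were lower and 1 higher, where 19.3% and 22.7% of all genes tested were. PRMT1, the main enzyme of asymmetric dimethylation, fell by 1.06 (SE 0.16, adjusted p = 0.000505), beside the fall by 1.06 of PRMT5, and PRMT7 fell by 0.63. PRMT2 was higher in both lines, by 0.93 (SE 0.13, adjusted p = 0.000377) in H929 and by 0.94 (SE 0.13, adjusted p = 0.00414) in KMS11, and it was the only one of the 7 called in KMS11. The fall in H929 was thus shared by 5 of the 8 methyltransferase genes tested when PRMT5 is counted, and PRMT2 went the other way. Of 4 genes for supply of the methyl donor, MTAP fell by 0.61, MAT2A fell by 0.59 and MAT2B was higher by 0.43 in H929. MTAP clears methylthioadenosine, a by-product that inhibits PRMT5, and it was present at 77.5 to 182 CPM in all 8 libraries.

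**Figure D4:**
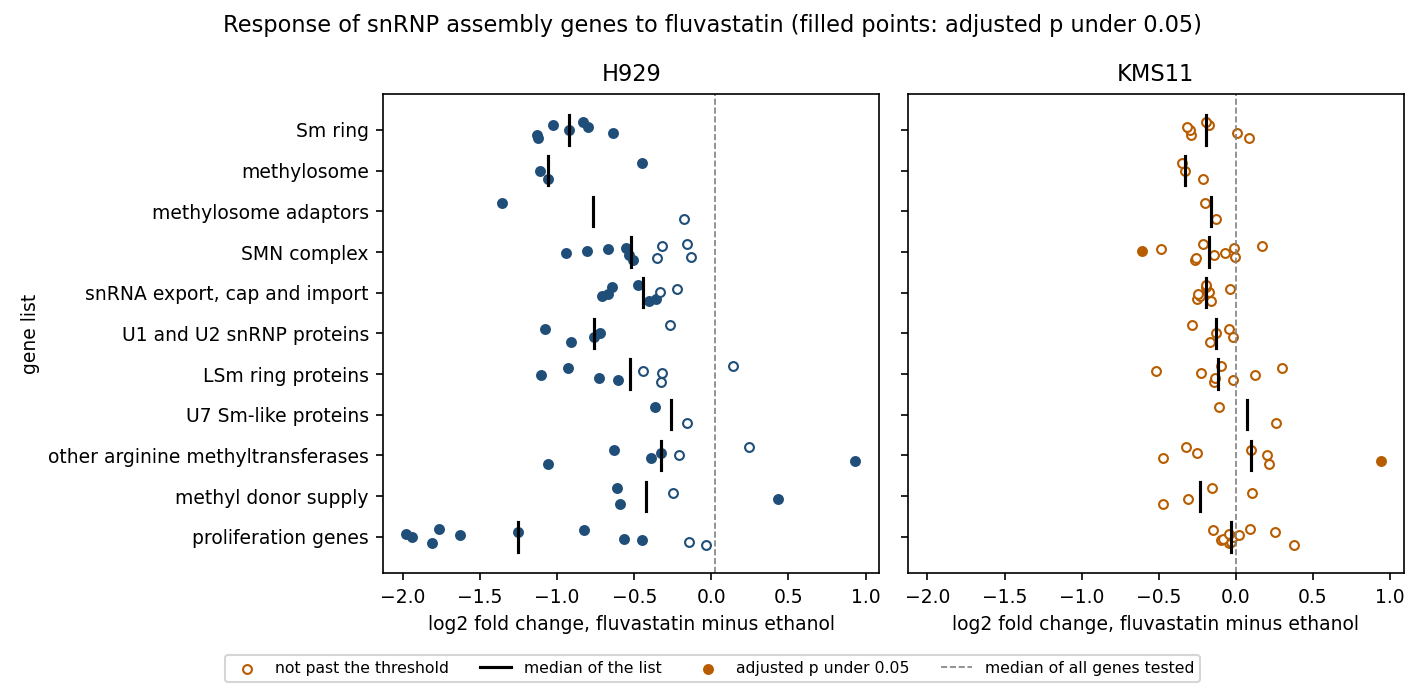
Log2 fold change of each gene in the 11 lists named on the vertical axis, in H929 (left) and KMS11 (right). Filled points passed the test, the black bar is the median of the list and the dashed line the median of all genes tested. In H929 the Sm ring and methylosome points are all filled and left of 0, and in KMS11 the filled points are GEMIN5 and PRMT2.

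Genes of DNA replication and mitosis are given beside these results. Of 11 proliferation genes, 9 were lower in H929 with a median of -1.25, led by the replication genes MCM4 (-1.98), MCM2 (-1.94) and PCNA (-1.81). CDK1 (-0.57) and CCNB1 (-0.45) fell less, and MKI67 (-0.04) and TOP2A (-0.14) did not pass. In KMS11 0 passed, and the median was -0.03. Their summed level was 709 to 764 TPM in ethanol and 338 to 381 TPM in fluvastatin in H929, and 961 to 1046 TPM against 854 to 967 TPM in KMS11. MYC had a log2 fold change of 0.39 (SE 0.10, adjusted p = 0.0138) in H929, where the 10 genes fell, and -0.44 (SE 0.10, adjusted p = 0.0539) in KMS11, and its responses differed by -0.83 (adjusted p = 0.00427). The part of proliferation or of MYC in the members' changes was not tested.

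The members resembled each other over the 8 libraries. Pearson's r of log2 CPM, after the mean of each line was taken away, had a median of 0.93 over the 45 pairs of members, a highest value of 0.995 and a lowest of 0.591, between SNRPB and CLNS1A. Among 5551 other genes whose log2 CPM averaged 5 or more, those most like the mean of the 7 Sm genes were MSH6 (r = 0.999), ALDH5A1 (0.998), PSMB2 (0.997), MRTO4 (0.997) and SUV39H2 (0.996). Those most like PRMT5 were WDR5 (0.998), NDUFAF8 (0.997), NUP93 (0.997), EIF3B (0.997) and POLR2H (0.997). Each of these 10 was called lower in H929 and none passed in KMS11, with values in H929 from -0.77 for NUP93 and ALDH5A1 to -1.35 for SUV39H2. With 8 libraries that share 1 treatment contrast such values are high for many genes, and they describe a likeness of pattern only.

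Some features of the genes bear on the values. The members are short, with a median effective length of 923 bases beside 2161 for all genes tested. SNRPE and SNRPG have 10 and 20 annotated pseudogenes, which took 1.57% to 2.89% and 2.34% to 4.04% of the counts of gene and copies together, and for the other members this share was at most 0.391%. WDR77 overlaps ATP5PB on the opposite strand at its 5′ end, and since the strand setting of the count was not given in the sources used here, some fragments of ATP5PB, which had 2840 to 8264 counts, may stand among those of WDR77. PRMT5-AS1, antisense to PRMT5, had 0 to 5 counts.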

How the data were processed

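RNA-seq was done on 8 libraries of H929 and KMS11 cells, and their groups were taken from the sample labels. Per the methods, the authors depleted ribosomal RNA, made stranded libraries of total RNA, aligned reads to GRCh38 and counted them against GENCODE v26. Their processing notes name STAR 2.5.2b and RSEM 1.3.0. The deposited values are expected counts, which were not normalized, and TPM, which RSEM scaled by effective length to a fixed sum over all genes of a library. The deposited FPKM were not used. The strand setting of RSEM was not given in the sources used here.

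Of 58219 listed genes, 58174 were used after duplicate rows of the Y copy of the pseudoautosomal regions were dropped. Names, positions and biotypes came from GENCODE 44 and promoters from RefSeq. The rounded expected counts were fitted by edgeR 4.0.16 in R 4.3.3, with TMM scaling and the quasi-likelihood F test, on genes that filterByExpr kept (minimum count 10, minimum total 15). P-values were adjusted by Benjamini-Hochberg over all 13129 protein-coding genes tested, with a threshold of 0.05. The response over both lines was fitted with a term for the line, and all other contrasts used 1 mean for each of the 4 groups. The standard error is the log2 fold change divided by the square root of F. CPM are counts relative to the TMM-scaled library size, and for log2 CPM a prior count of 2 was used. The scripts were tested on simulated counts with known changes. Within KMS11, 71% of the genes changed by 1 on the log2 scale were called, and 17% of those changed by 0.5. Within H929 these shares were 73% and 22%, and over both lines 82% and 52%. Of the calls, 6.94% (both lines), 9.52% (H929) and 11.1% (KMS11) were genes that had not been changed. In the fit of the 4 group means, p-values measure the spread between the 2 biological replicates of each group, shared over genes and groups. In the fit over both lines, the spread also holds the difference in response between the lines.

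The members and the gene lists were chosen with earlier results of these data known. All 10 members were named, and from each other list up to 3 genes past the threshold with the largest change within a line, or every gene of a list of 1 or 2. Genes of like pattern were the 5 with the highest Pearson r to the Sm ring mean and to PRMT5.

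The alternatives were DESeq2 1.42.0, limma 3.58.1 on log2(TPM + 1), median-of-ratios and library size scaling, no filter, a minimum count of 50, all annotated genes, an adjusted p under 0.01, leaving out genes with a Cook's distance above 0.8 (292 genes), leaving out each library, a replicate block, no line term, and removal of the trends with GC content and effective length (loess span 0.3).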

Additional observations from a re-analysis of the deposited data

Results flagged for a closer look

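H929 and KMS11 responded unequally, by the edgeR quasi-likelihood test of the difference itself (KMS11 minus H929, log2 scale), for 7 of the 10 members. All 7 were positive, where 11.7% of all genes tested were called with this sign. Of the other genes named outside the cell type markers, 16 differed. Most of those were named for a large change within a line, so that their number is not a separate result. A positive value means that the log2 fold change was lower in H929. Among the members the differences were 1.21 for SNRPB, 0.84 for SNRPD1, 0.65 for SNRPD2, 0.63 for SNRPD3, 0.85 for SNRPF, 0.85 for PRMT5 and 0.79 for WDR77. Among the partners in assembly they were 1.15 for COPRS, 0.87 for GEMIN4 and 0.45 for KPNB1. Among the proteins of the U1 and U2 particles they were 0.75 for SNRNP70, 0.74 for SNRPA and 1.04 for SNRPA1, and in the LSm ring 0.60 for LSM3, 1.23 for LSM4 and 1.23 for LSM7. PRMT1 and PRMT7 had 1.28 and 0.73.

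The 3 proliferation genes, named for their large change within a line, had the greatest differences of those listed here, 1.93 for MCM2, 1.93 for MCM4 and 1.76 for PCNA. MAT2B (-0.75) and MYC (-0.83) had the opposite sign, with the higher log2 fold change in H929.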

How the results depend on the processing

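Within H929, 9 or 10 of the 10 members were called lower under every alternative tried. Over both lines the 6 calls became 0 at an adjusted p under 0.01 and with no cell line term. They also became 0 with a replicate block, with or without removal of the GC and length trends. Over all 13129 genes tested, lower calls went from 516 to 13 at an adjusted p under 0.01 and to 0 with no cell line term. They were 15 with the block and 140 with the block and both trends removed. The number of members called also changed when 1 library was left out. Within KMS11 the count of 0 became 4 with the GC trend, or the GC and length trends, removed, and 2 with a replicate block. Over all 13129 genes tested, lower calls in KMS11 went from 70 to 751, 770 and 476 in the same order. The number of members called in KMS11 also changed when fluvastatin replicate 2 of that line was left out. The 7 differences between the lines became 4 with limma on log2(TPM + 1) or at an adjusted p under 0.01 and 3 with the length trend removed. Over all 13129 genes tested, positive differences called went from 1542 to 757, 615 and 1300 in the same order. The number of members that differed also changed when 1 library was left out. The cause of these shifts was not tested.

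Replicate numbers were taken as names, since deviations of same-numbered libraries had a correlation of 0.774 in H929 but -0.0782 in KMS11. With the replicate block, 9 members had a positive difference in response between the lines, where 2252 of the 13129 genes tested did. At baseline 8 members differed in that fit, where 10045 of the 13129 genes tested did.

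Values near 0 changed sign. In KMS11 the response of SNRPB was -0.0513 with limma, -0.00852 with the length trend removed and from -0.0868 to 0.196 when 1 library was left out. That of SNRPD2 was -0.0281 with median-of-ratios scaling and with DESeq2, -0.00968 with all annotated genes, -0.11 with the length, GC or both trends removed, and from -0.108 to 0.0675 when 1 library was left out. The baseline difference of SNRPB was -0.0671 with the GC trend removed, -0.13 with both removed and from -0.0537 to 0.0851 when 1 library was left out, and that of CLNS1A was 0.30 with limma. The difference in response of CLNS1A was -0.0352 with limma, -0.13 with the length trend removed and from -0.0170 to 0.221 when 1 library was left out. In H929, LSM10 had 0.0367, 0.0238 and 0.149 with the length, GC and both trends removed, and SNRPN ranged from -0.00802 to 0.118 when 1 library was left out. Among single-gene values of members, 930 kept their direction and side of the threshold, 86 lost the call, 36 gained it and 18 changed sign. Each member had at least 529 counts in a library and each group 2 replicates, and protein and splicing were not measured.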
